A study of Homo sapiens with 8 samples.

Results

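The glutathione S-transferases are the enzymes that join glutathione, the abundant thiol tripeptide of the cell, to electrophilic compounds. Transcripts of 10 genes of this kind were examined among the 57815 gene identifiers measured in ABC1 and HCC4006 cells. The genes were taken by symbol from a fixed list, which was drawn up with earlier results of these data known. They are the 7 cytosolic or mitochondrial transferases *GSTP1*, *GSTM3*, *GSTM4*, *GSTA4*, *GSTO1*, *GSTZ1* and *GSTK1* and the 3 microsomal transferases *MGST1*, *MGST2* and *MGST3*. ABC1 and HCC4006 are established human lung adenocarcinoma lines, which the labels describe as free of mutations of *KEAP1* and *NRF2* and which the study calls NRF2-normal. Each line was exposed for 16 h to 100 μM DEM, given in the methods as diethyl maleate although the title of the series writes out another ester, or to the vehicle DMSO alone, so that the 4 groups were ABC1 vehicle, ABC1 DEM, HCC4006 vehicle and HCC4006 DEM. Each group held 2 libraries, described as biological duplicates and numbered 0 and 1, which makes 8 polyA-selected, strand-specific RNA-seq libraries in all. The question set by this design was which transferases each line expressed and which of them followed an electrophile that is itself conjugated to glutathione.

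DEM depletes glutathione by forming a conjugate with it, a reaction that these enzymes speed up. Electrophiles of this kind also modify KEAP1, the adaptor that sends the transcription factor NRF2 for degradation, after which NRF2 accumulates and binds antioxidant response elements together with a small MAF protein. The cytosolic enzymes are grouped into classes by sequence (pi, mu, alpha, omega, zeta), the kappa enzyme resides in mitochondria and peroxisomes, and the microsomal enzymes are integral membrane proteins of a separate superfamily. Pi, mu and alpha transferases are textbook members of the electrophile response in rodent liver, whereas the zeta and kappa enzymes are better known from amino acid breakdown and from mitochondria.

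The promoters of *GSTP1* and *MGST1* are shown because these were the most abundant members, and because one of them did not pass the test for DEM in either line while the other passed it in HCC4006. Promoter windows were those of RefSeq (GRCh38.p14), 300 bases from 250 before to 50 after a transcription start, and 9 of the 10 members had a window (*MGST2* had none). Each stretch below is the first 200 bases of a window, ending 51 bases before the start, and was found by exact match at 1 place in GRCh37, on the plus strand. Capitals mark the letters TGACNNNGC, the core of the antioxidant response element.
*GSTP1*, chr11:67351033-67351232: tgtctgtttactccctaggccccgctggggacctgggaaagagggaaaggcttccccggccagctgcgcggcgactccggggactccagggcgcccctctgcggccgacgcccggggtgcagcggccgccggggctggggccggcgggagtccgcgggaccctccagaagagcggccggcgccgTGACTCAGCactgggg
*MGST1*, chr12:16500329-16500528: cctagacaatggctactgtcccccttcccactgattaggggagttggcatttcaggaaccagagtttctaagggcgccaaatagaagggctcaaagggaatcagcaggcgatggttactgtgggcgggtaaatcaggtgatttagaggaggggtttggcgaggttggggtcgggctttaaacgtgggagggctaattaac
The *GSTP1* stretch holds 1 match, TGACTCAGC, from 66 to 58 bases before the RefSeq start. It lies inside the gene span of GENCODE, which begins at 67351213. No letters of this kind occurred in the printed *MGST1* stretch, which lies inside the gene span of GENCODE (16500076 to 16762193). The other matches in members are given with 10 bases on either side, in the direction of the gene, and are shown because they are all of the remaining candidates.
*GSTA4*, chr6:52860073-52860101, minus strand: ccgggaccgcTGACCTGGCgctttgtgcg
*GSTO1*, chr10:106014414-106014442, plus strand: ggcggagggaTGACTGAGCatttataact
*GSTO1*, chr10:106014479-106014507, plus strand: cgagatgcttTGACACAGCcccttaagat
*MGST1*, chr12:16500069-16500097, plus strand: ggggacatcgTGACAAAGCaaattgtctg
The last of these matches follows the start of another of the 3 *MGST1* windows, 31 to 39 bases downstream, and also lies inside the *MGST1* gene span. In all, 4 of the 11 windows of members held a match on either strand, beside 13.3% of the 35116 windows of all genes. Counted by gene, these were 4 of 9 members, beside 4384 of 27305 genes. The windows of *GSTM3*, *GSTM4*, *GSTK1*, *GSTZ1* and *MGST3* held none. These matches describe letters only, and binding at them was not measured in the files used here.

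Levels are in FPKM, fragments scaled to transcript length and to the mapped total of the library, so they may be compared between genes. The libraries were alike in the sum of FPKM (the largest was 1.18 times the smallest) and in the number of genes at 1 FPKM or more (12515 to 13573). Epithelial markers were present in both lines, with 6 of 6 (*EPCAM*, *CDH1* and keratins) at 1 FPKM or more, and the 4 leukocyte markers reached at most 0.192 FPKM, with 0 of the 2 endothelial markers found at 1 FPKM. With DEM the 6 epithelial markers had a median log2 fold change of -0.45 in ABC1 (0 called, 6 below 0) and of -0.27 in HCC4006 (3 called lower, where 10.7% of all genes were), and their part in the values below was not tested. The lung lineage markers were absent from ABC1, where the highest of 4 reached 0.763 FPKM, while 2 of 4 (*NKX2-1* and *NAPSA*) passed 1 FPKM in HCC4006. Of 4 mesenchymal markers, 1 passed in ABC1 and 3 in HCC4006, with *VIM* at up to 283 FPKM there.

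Of the summed transcripts of the 10 members, most came from *GSTP1* and *MGST1* in both lines. Relatives outside the 10, such as *GSTT1* (31.1 FPKM in HCC4006 vehicle), do not enter the shares and orders below. Together this pair made up 88.6% ± 0.525 (SD, n = 2) of the summed FPKM of the 10 genes in vehicle-treated ABC1 and 76.9% ± 0.0741 (SD, n = 2) in vehicle-treated HCC4006. In every group each of the pair exceeded at least 99.5% of all gene identifiers. In vehicle-treated ABC1 the order from high to low was *GSTP1*, *MGST1*, *GSTK1*, *MGST3*, *GSTO1*, *MGST2*, *GSTZ1* and *GSTA4*, with *GSTM3* and *GSTM4* practically unexpressed, and no neighbours in this order overlapped between libraries. In vehicle-treated HCC4006 the order was *MGST1*, *GSTP1*, *MGST3*, *GSTK1*, *MGST2*, *GSTZ1*, *GSTO1*, *GSTM4*, *GSTM3* and *GSTA4*, in which the libraries of *GSTK1* and *MGST2* overlapped. With DEM the order of means was the same as with vehicle in each line, and in ABC1 *GSTP1* overlapped *MGST1* and *GSTO1* overlapped *MGST2*.

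**Figure D1:**
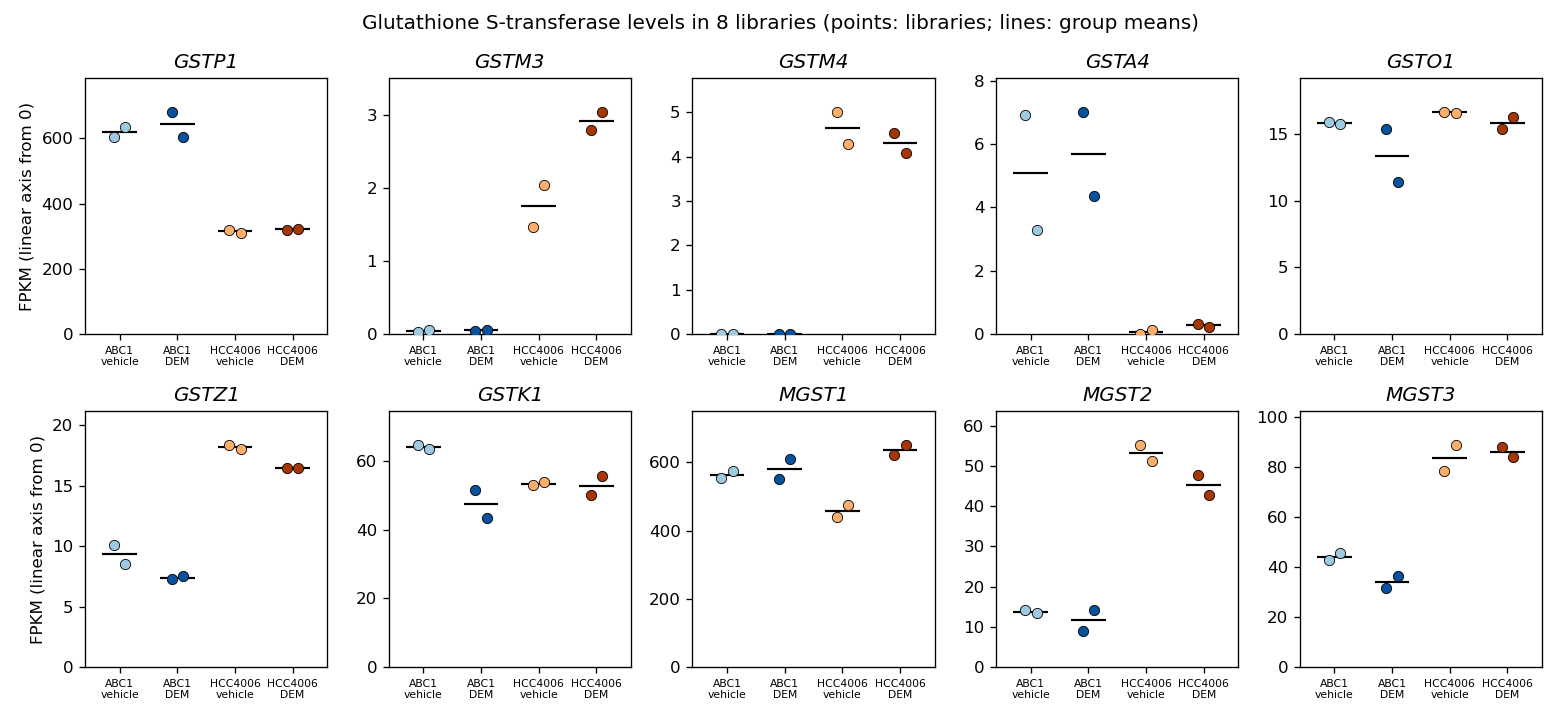
FPKM (linear axes from 0) of each of the 10 transferase genes, with 1 point per library, 2 per group, and a line at the group mean. *GSTP1* spans 604 to 682 FPKM in ABC1 but 311 to 323 FPKM in HCC4006, *MGST1* is higher in both DEM libraries of HCC4006 than in the vehicle ones, and *GSTM3*, *GSTM4* and *GSTA4* are each found in 1 line only at 1 FPKM or more.

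*GSTP1* (ENSG00000084207.11, chromosome 11 from 67351213 to 67354127 on GRCh37) encodes the pi class enzyme, the main cytosolic transferase of many epithelial tumours. Its libraries read 606 and 635 FPKM in ABC1 vehicle, 682 and 604 in ABC1 DEM, 320 and 311 in HCC4006 vehicle, and 319 and 323 in HCC4006 DEM. All 4 ABC1 libraries lay above all 4 HCC4006 libraries, and within each line the DEM and vehicle libraries overlapped. The vehicle mean of 620 ± 21.0 FPKM in ABC1 was 1.97 times the 315 ± 6.32 FPKM of HCC4006 (SD, n = 2 each), a log2 difference (HCC4006 minus ABC1) of -0.97 (standard error 0.09, adjusted p = 6.1e-05 by limma). The log2 fold change with DEM was 0.05 in ABC1 (95% confidence interval -0.31 to 0.41, adjusted p = 0.867) and 0.03 in HCC4006 (-0.12 to 0.17, adjusted p = 0.767). The study placed *GSTP1* among genes that depend on NRF2 in lines with mutated *KEAP1* and that DEM did not raise in these same libraries, so its flat level here is not independent evidence.

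The mu class was found in HCC4006 only at 1 FPKM or more. *GSTM4* (ENSG00000168765.11, chromosome 1 from 110198721 to 110208118) was at 5.01 and 4.28 FPKM with vehicle and 4.54 and 4.09 with DEM in HCC4006, whereas 3 ABC1 libraries listed it at 0 and the other at 0.00766. The HCC4006 libraries overlapped between treatments, and the log2 fold change was -0.09 (standard error 0.14, interval -0.42 to 0.25, adjusted p = 0.686). Of its 80-base words, 4.97% also occur in *GSTM5*, *GSTM1* or *GSTM2*, so part of this level could belong to those neighbours. *GSTM3* (ENSG00000134202.6, chromosome 1 from 110276554 to 110283660) is the mu gene that stands apart in sequence and shares no such word with another gene. Its HCC4006 libraries read 1.47 and 2.05 FPKM with vehicle and 2.79 and 3.05 with DEM, while every ABC1 library lay between 0.0320 and 0.0552. Both DEM libraries of HCC4006 were above both vehicle libraries, at 1.66 times the vehicle mean, but the log2 fold change of 0.51 (standard error 0.17, interval 0.09 to 0.94) did not pass the test over all genes (adjusted p = 0.0900). *GSTM3* rests on few reads, with an authors' mean of 58.4 scaled counts per library in HCC4006, against 3787 for *MGST1*.

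*GSTA4* (ENSG00000170899.6, chromosome 6 from 52842746 to 52860102), the alpha class enzyme with a preference for 4-hydroxynonenal and other products of lipid peroxidation, showed the opposite line pattern. It measured 6.93 and 3.27 FPKM in ABC1 vehicle and 7.02 and 4.37 in ABC1 DEM, against 0.0115 and 0.113 in HCC4006 vehicle and 0.326 and 0.229 in HCC4006 DEM. The ABC1 libraries overlapped between treatments and spread widely, so the interval of the log2 fold change there ran from -0.68 to 1.02 (estimate 0.17, standard error 0.34, adjusted p = 0.803). In HCC4006 both DEM libraries lay above both vehicle libraries, but at an authors' mean of 3.26 scaled counts per library the gene was under the minimum of 1 FPKM and was not tested. Since these 3 genes passed the minimum only through the line in which they are high, no fold or test of the line difference is given for them.

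The other 3 cytosolic or mitochondrial members were present at moderate levels in both lines. *GSTO1* (ENSG00000148834.8, chromosome 10 from 105995114 to 106027217) encodes the omega enzyme, which reduces dehydroascorbate and removes glutathione from proteins rather than conjugating foreign compounds. It measured 15.9 and 15.8 FPKM in ABC1 vehicle, 15.4 and 11.4 in ABC1 DEM, 16.7 and 16.6 in HCC4006 vehicle and 15.4 and 16.3 in HCC4006 DEM. Both DEM libraries lay under both vehicle libraries in each line, but neither the log2 fold change of ABC1, -0.24 (standard error 0.17, adjusted p = 0.452), nor that of HCC4006, -0.07 (standard error 0.09, adjusted p = 0.610), passed the test. *GSTO1* was also the most even member across lines, with a vehicle difference of 0.07 and an interval from -0.25 to 0.39 (adjusted p = 0.673).

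*GSTZ1* (ENSG00000100577.14, chromosome 14 from 77787339 to 77797940) encodes maleylacetoacetate isomerase, which uses glutathione in the breakdown of tyrosine. Its values were 10.1 and 8.50 FPKM in ABC1 vehicle, 7.27 and 7.49 in ABC1 DEM, 18.4 and 18.0 in HCC4006 vehicle and 16.5 and 16.4 in HCC4006 DEM. All HCC4006 libraries were above all ABC1 libraries, and in each line both DEM libraries were under both vehicle libraries. The vehicle difference between the lines was 1.96-fold (log2 0.90, standard error 0.11, adjusted p = 1.9e-04 by limma), whereas neither line's change with DEM was called, at -0.29 for ABC1 (adjusted p = 0.308) and -0.14 for HCC4006 (adjusted p = 0.294).

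*GSTK1* (ENSG00000197448.9, chromosome 7 from 142941186 to 142967947), the kappa enzyme, measured 64.8 and 63.5 FPKM in ABC1 vehicle, 51.5 and 43.6 in ABC1 DEM, 53.1 and 53.9 in HCC4006 vehicle, and 50.1 and 55.7 in HCC4006 DEM. In ABC1 both DEM libraries lay under both vehicle libraries, which was the largest downward log2 fold change of any member in either line (-0.43, standard error 0.13, interval -0.76 to -0.10), and the HCC4006 libraries overlapped. The ABC1 value did not pass the test in the fit of that line (adjusted p = 0.153), but it did when the spread was estimated from all 8 libraries (adjusted p = 0.0459). Between the vehicle-treated lines *GSTK1* differed by -0.26 (standard error 0.11, adjusted p = 0.0650), and by the same amount with an adjusted p of 0.0394 when the 4 vehicle libraries were fitted alone.

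Among the microsomal members, *MGST1* (ENSG00000008394.8, chromosome 12 from 16500076 to 16762193) was the one called with DEM. It encodes the membrane transferase of the endoplasmic reticulum and outer mitochondrial membrane, which also reduces lipid hydroperoxides. In HCC4006 it rose from 439 and 474 FPKM with vehicle to 622 and 652 with DEM, and in ABC1 it was at 553 and 574 with vehicle and 552 and 610 with DEM. The HCC4006 groups were fully separate and the ABC1 groups overlapped. The HCC4006 means of 456 ± 25.1 and 637 ± 20.7 FPKM (SD, n = 2 each) are a 1.40-fold rise, or 0.48 on the log2 scale (standard error 0.07, interval 0.32 to 0.64, adjusted p = 0.00924 by limma). In ABC1 the log2 fold change was 0.04 (interval -0.30 to 0.39, adjusted p = 0.884). The HCC4006 call was lost without the minimum of 1 FPKM (adjusted p = 0.106), without HCC4006 vehicle replicate 0 (0.0547) and without HCC4006 DEM replicate 1 (0.0504), and its log2 fold change was 0.48, 0.42 and 0.45 in these settings. The difference in response between the lines was 0.44 (HCC4006 minus ABC1, standard error 0.14, interval 0.12 to 0.76) and did not pass the test over all genes (adjusted p = 0.203), so the rise is not shown to be particular to HCC4006.

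With vehicle alone, *MGST1* was 1.23 times as high in ABC1 as in HCC4006 (log2 difference -0.30, standard error 0.10, adjusted p = 0.0251), a call that was lost when any 1 of the 4 vehicle libraries was left out (adjusted p from 0.0544 to 0.162). Among the DEM libraries the order was turned, with both HCC4006 values above both ABC1 values, a difference that was not tested. The ratio of *MGST1* to *GSTP1* FPKM was 0.908 ± 0.00670 in ABC1 vehicle and 0.910 ± 0.141 in ABC1 DEM, and 1.45 ± 0.109 in HCC4006 vehicle and 1.98 ± 0.0470 in HCC4006 DEM (SD, n = 2 each). The ratios were not tested.

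*MGST2* (ENSG00000085871.4, chromosome 4 from 140586922 to 140661899), which can also make leukotriene C4, had the largest line difference of the members present in both lines. Its values were 14.2 and 13.4 FPKM in ABC1 vehicle, 8.95 and 14.2 in ABC1 DEM, 55.3 and 51.2 in HCC4006 vehicle, and 47.8 and 42.7 in HCC4006 DEM. The vehicle means differed 3.86-fold (log2 1.87, standard error 0.19, adjusted p = 7.1e-05 by limma). In HCC4006 both DEM libraries were under both vehicle libraries, but the log2 fold change of -0.23 (standard error 0.09, interval -0.45 to -0.01) was not called (adjusted p = 0.120), and in ABC1 the groups overlapped (-0.27, standard error 0.22, adjusted p = 0.521).

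*MGST3* (ENSG00000143198.8, chromosome 1 from 165600450 to 165631033), a glutathione peroxidase and transferase of the same superfamily, was at 42.7 and 45.6 FPKM in ABC1 vehicle, 31.8 and 36.5 in ABC1 DEM, 78.5 and 88.8 in HCC4006 vehicle, and 88.0 and 84.1 in HCC4006 DEM. Every HCC4006 library was above every ABC1 library, and the vehicle means differed 1.89-fold (log2 0.90, standard error 0.11, adjusted p = 1.9e-04 by limma). In ABC1 both DEM libraries lay under both vehicle libraries, but the log2 fold change of -0.37 (standard error 0.13, interval -0.69 to -0.04) was not called (adjusted p = 0.188), and in HCC4006 the groups overlapped (0.04, standard error 0.08, adjusted p = 0.745).

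**Figure D2:**
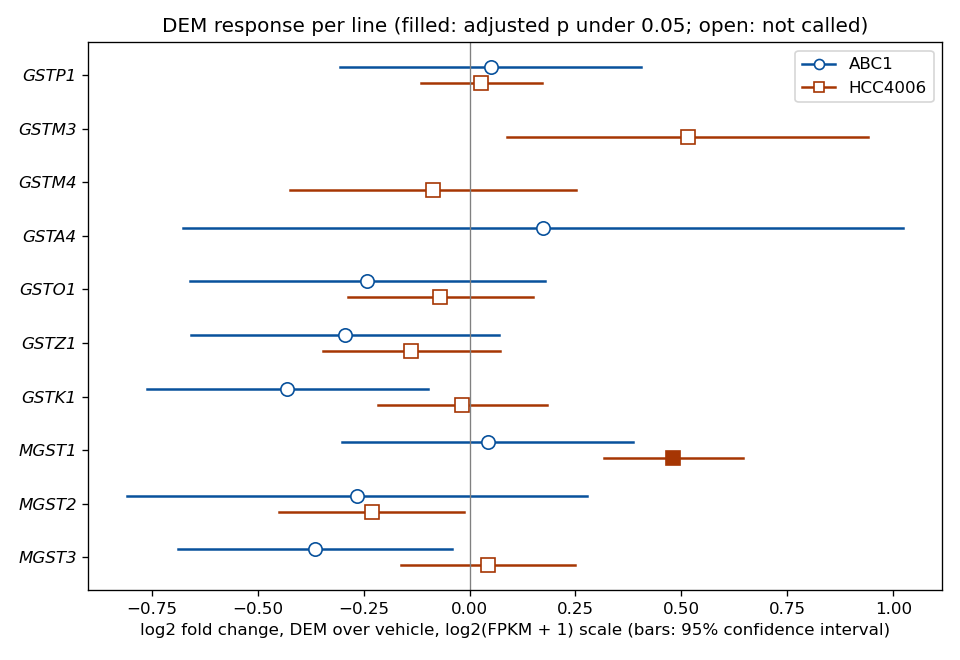
Log2 fold change of each member with DEM over vehicle on the log2(FPKM + 1) scale, with 95% confidence intervals from limma, circles for ABC1 and squares for HCC4006. Only the *MGST1* square, at 0.48, is filled (adjusted p under 0.05), and members under 1 FPKM in a line have no marker there.

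Across the transferases few responses to DEM were called. In ABC1, 8 members were tested and 0 were called by limma, where 1.2% of all 12635 genes were called, and 2 members (*GSTK1* and *MGST3*) had an unadjusted p under 0.05, as did 21.9% of all genes. Their median log2 fold change was -0.25 beside -0.02 over all genes. The smallest change called among all genes in ABC1 was 0.80 on the log2 scale, in either direction, and that of every member there was smaller. In HCC4006 the smallest change called was 0.22. In HCC4006, 9 members were tested and 1 was called higher, where 8.45% of all 13542 genes were called higher and 10.7% lower (19.1% in either direction), and 3 members had an unadjusted p under 0.05 (*MGST1*, *GSTM3* and *MGST2*), as did 36.8% of all genes. The median there was -0.02 beside -0.03 over all genes. In ABC1, 4 of the 8 members had both DEM libraries under both vehicle libraries (28.2% of all genes did) and 0 had both above (25.5% of all genes). In HCC4006, 3 of the 9 had both below (35.3% of all genes) and 2 had both above (29.3% of all genes).

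Of the 7 members at 1 FPKM or more in all 4 groups, 0 differed between the lines in the response to DEM at an adjusted p under 0.05 by limma, where 0.636% of all 13682 genes did, 0.307% with the higher response in HCC4006 and 0.329% with the higher response in ABC1. Before adjustment 3 of the 7 had a p under 0.05, as did 15.1% of all genes. Besides *MGST1* these were *GSTK1* and *MGST3*, each with a difference of 0.41 (standard error 0.15), adjusted p 0.259 and 0.265, and each lower with DEM in ABC1 and nearly level in HCC4006.

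Between the vehicle-treated lines, more members were called than between treatments. Of the same 7 members, 5 were called, 3 higher in HCC4006 (*GSTZ1*, *MGST2*, *MGST3*) and 2 higher in ABC1 (*GSTP1*, *MGST1*). This share is to be read against 66.9% of all genes that were called in this comparison, 36.8% higher in HCC4006 and 30.2% higher in ABC1. As the lines also differed in lung lineage and mesenchymal markers, the part of these features in the transferase levels was not tested. In bulk libraries, fewer cells of a type and less RNA per cell cannot be told apart.

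Summed over the 10 genes, transferase transcripts reached 1336 ± 32.7 FPKM in ABC1 vehicle and 1344 ± 17.1 in ABC1 DEM, and 1003 ± 23.5 in HCC4006 vehicle and 1182 ± 21.6 in HCC4006 DEM (SD, n = 2 each). The sum was higher in both DEM libraries of HCC4006 (1167 and 1197) than in both vehicle libraries (987 and 1020). The 3 microsomal members alone summed to 593 ± 29.6 FPKM with vehicle and 768 ± 14.3 with DEM in HCC4006, and to 621 ± 16.4 and 627 ± 47.8 in ABC1. *MGST1* accounted for 45.5% ± 1.44 of the summed FPKM in HCC4006 vehicle and 53.9% ± 0.771 in HCC4006 DEM. These sums and shares were not tested.

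**Figure D3:**
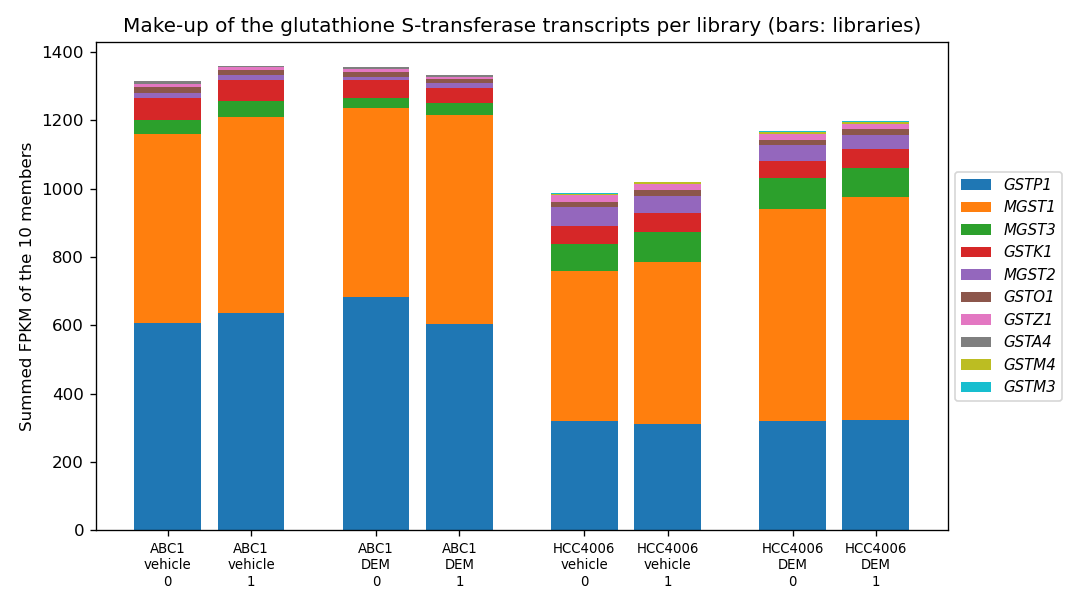
Stacked FPKM of the 10 members, with 1 bar per library and a linear axis from 0. The *GSTP1* and *MGST1* segments fill most of each bar, and the *MGST1* segment is taller in the HCC4006 DEM bars (622 and 652) than in the HCC4006 vehicle bars (439 and 474).

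The genes whose profile over the 8 libraries was most like that of *MGST1* were *ZRANB1*, which encodes a deubiquitinating enzyme, an identifier without a symbol (ENSG00000261088.1) and *FAM53C*. Their root mean square distances from *MGST1*, on the log2(FPKM + 1) scale after each gene's own mean was subtracted, were 0.0478, 0.0659 and 0.0689 among 13672 genes compared. Their log2 fold changes with DEM in HCC4006, 0.58 for *FAM53C* and 0.44 for *ZRANB1*, follow from this choice and are given as a description.

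The remaining genes of the family were counted from a list. Of 16 listed relatives, 4 were tested in ABC1 with 0 called by limma and 0 at an unadjusted p under 0.05, and 7 in HCC4006 with 1 called lower (10.7% of all genes were). *GSTM1* (5.71 FPKM) and *GSTM2* (2.64 FPKM) were present in HCC4006 vehicle and at or near 0 in ABC1, as were the 2 mu members above, although 35.2% and 25.1% of their 80-base words occur in other genes. *GSTT2* averaged 1.36 FPKM in HCC4006 vehicle and was listed at 0 in ABC1, with 77.3% of its words shared with *GSTT2B*. *GSTT1*, of the theta class, was at 7.46 FPKM in ABC1 vehicle and 31.1 in HCC4006 vehicle. *GSTO2* (5.05 and 2.57 FPKM in the vehicle groups) and *GSTCD* (10.0 and 11.1) were present in both lines.

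The relative called was *PTGES*, the microsomal prostaglandin E synthase, which belongs to the same superfamily as the MGST proteins and uses glutathione as a cofactor. In HCC4006 it fell from 19.5 and 21.5 FPKM with vehicle to 10.2 and 9.89 with DEM, and in ABC1 it was at 144 and 141 with vehicle and 163 and 130 with DEM. The HCC4006 groups were separate and the ABC1 groups overlapped. The log2 fold change in HCC4006 was -0.96 (standard error 0.10, adjusted p = 0.00391 by limma), and the difference in response from ABC1 was -0.99 (standard error 0.17, adjusted p = 0.0662).

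Genes of glutathione supply rose in both lines. Of 7 listed genes, 5 were called higher in ABC1 (where 0.768% of all genes were) and 6 in HCC4006 (8.45% of all genes), with median log2 fold changes of 1.41 and 1.44. *GCLC*, the catalytic subunit of the rate-limiting ligase of glutathione synthesis, rose by 3.21 (log2) in ABC1 and 2.20 in HCC4006. *SLC7A11*, the cystine carrier, rose by 2.55 and 2.76, *GCLM*, the modifier subunit of the ligase, by 1.61 and 2.15, and *GSR*, which regenerates reduced glutathione, by 1.41 and 1.44. *GSS*, which completes the tripeptide and was named after its values were seen, was called in neither line (-0.23 and 0.03). The 5 control genes of the NRF2 response (*NQO1*, *TXNRD1*, *SRXN1*, *HMOX1* and *OSGIN1*) were called higher in both lines, with median log2 fold changes of 2.64 and 2.65. The study treats *GCLC*, *GCLM*, *SLC7A11*, *NQO1* and *TXNRD1* as representative NRF2 targets. Its canonical list required a fall with *NRF2* knockdown in lines with mutated *KEAP1* and a rise with DEM in these libraries. Its set of genes raised by DEM came from the same libraries for every gene. The direction of the supply and control genes here is therefore not independent evidence.

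Glutathione conjugates are exported by ABCC transporters and trimmed to mercapturic acids. The list for these steps also held genes that handle glutathione or γ-glutamyl products themselves, such as *CHAC1* and *GGCT*. Its response to DEM was mixed. The only call in ABC1 (*CHAC1*) and the only lower call in HCC4006 (*GGCT*) came from those genes. Of 24 listed genes, 11 were tested in ABC1 with 1 called higher (0.768% of all genes were), and 15 in HCC4006 with 4 called higher and 1 lower (8.45% and 10.7% of all genes). *CHAC1*, which cleaves glutathione inside the cell, was the gene called in both lines, at 15.7 ± 1.08 and 43.6 ± 0.559 FPKM in ABC1 (log2 fold change 1.41, adjusted p = 0.0186) and 10.1 ± 1.53 and 19.0 ± 1.60 FPKM in HCC4006 (0.85, adjusted p = 0.0116). The 3 exporters called higher with DEM in HCC4006 were *ABCC5*, *ABCC3* and *ABCC1*, by 1.11, 0.71 and 0.62 on the log2 scale (adjusted p = 0.00319, 0.0140 and 0.00747). Of the other listed ABCC genes, named after their values were seen, *ABCC4* was not called there (0.62, standard error 0.17, adjusted p = 0.0518 by limma). *ABCC2* was under the minimum in both lines. For both genes the DEM libraries of HCC4006 lay above the vehicle libraries, as in 29.3% of all genes. In ABC1 neither *ABCC5* (0.51, standard error 0.12) nor *ABCC1* (0.42, standard error 0.15) was called, and *ABCC3* was under the minimum. For *ABCC5* and *ABCC1* both DEM libraries of ABC1 still lay above both vehicle libraries, as in 25.5% of all genes. Their differences in response (HCC4006 minus ABC1) were 0.60 and 0.20 and were not called by limma (adjusted p = 0.0940 and 0.652). The rise of *ABCC5* and *ABCC1* is therefore not shown to be particular to HCC4006. *GGCT*, γ-glutamylcyclotransferase, fell by 0.43 on the log2 scale in HCC4006 (adjusted p = 0.0122).

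**Figure D4:**
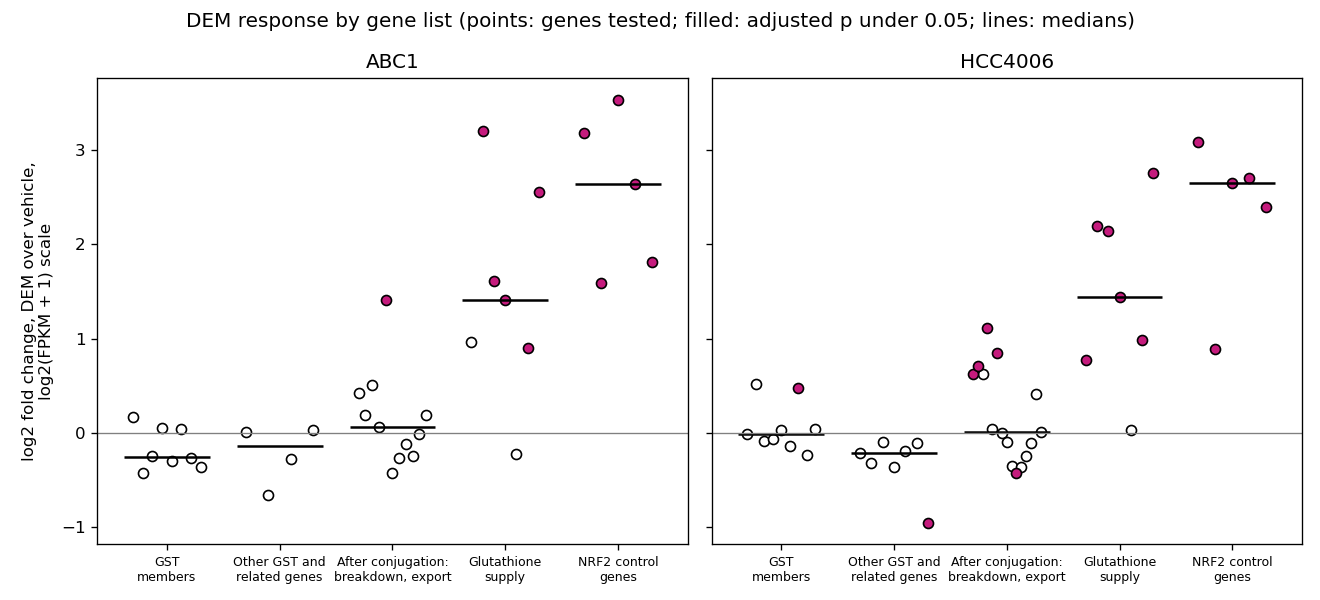
Log2 fold change with DEM over vehicle of each gene tested, by gene list and line, with filled points for an adjusted p under 0.05 and a line at each list's median. The transferase members lie near 0 (medians -0.25 in ABC1 and -0.02 in HCC4006), below the glutathione supply genes (1.41 and 1.44) and the control genes (2.64 and 2.65).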

How the data were processed

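RNA from ABC1 and HCC4006 cells was sequenced by the authors as 80-base paired-end reads. FPKM values were deposited by the authors for each gene and library, with hg19 as the genome, and the depth of a library cannot be read from them. The paper's methods name TopHat and Cufflinks, whereas the submitters' processing notes list STAR 2.5.3a, cutadapt 1.15, Cuffnorm, HTSeq and DESeq2, so which aligner made the FPKM values is uncertain. The authors also deposited a comparison table per line, of which the base mean alone was used, a normalized signal (the mean of scaled counts over the line's 4 libraries). Their fold changes and p-values were not used. Symbols were found for 55534 of 57815 identifiers, and positions are those of GENCODE on GRCh37.

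Groups followed the sample titles. The effect of DEM was tested in 1 line at a time with limma 3.58.1 (R 4.3.3), using log2(FPKM + 1), a trend of variance with mean, and genes averaging 1 FPKM or more in that line. Differences between vehicle-treated lines and between responses came from a fit to all 8 libraries. Calls required a Benjamini-Hochberg adjusted p under 0.05 over all genes tested, and fold changes of low genes are understated by the pseudocount. Scripts were tested on simulated data. The members and gene lists were chosen with earlier results of these data known. All 10 members are named. Relatives are named at a group mean of 1 FPKM or more, genes of other lists when called with DEM, up to 4 per list and line. Shared reads were judged from 80-base words of coding transcripts.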

Additional observations from a re-analysis of the deposited data

How the results depend on the processing

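Over 390 values of the members recomputed under alternatives, 362 kept their direction and their side of the threshold, 7 lost the call and 6 gained it, 0 called values reversed, and 15 values that were not called changed sign, each with a library left out. In ABC1 the number of members called was 0 with each library left out in turn (range 0 to 0), 1 with the fit on all 8 libraries (*GSTK1*) and 2 with the replicate number as a block (*GSTK1*, adjusted p = 0.0224, and *MGST3*, 0.0334). In HCC4006 it was 0 without the minimum of 1 FPKM and between 0 and 1 with a library left out. Replicate numbers are shared by the groups but no label ties them to a batch, and the deviations of same-numbered libraries correlated at 0.258 across genes in ABC1 and 0.0544 in HCC4006, so the block is an alternative only. It left the count of members at 1 in HCC4006 and, of the 7 members present in both lines, at 5 between the vehicle-treated lines and at 0 for the difference in response, while over all genes it raised the calls from 97 higher and 55 lower to 1185 and 1163 in ABC1, and gave 1457 and 1847 in HCC4006 beside 1144 and 1447. Between the vehicle-treated lines 4 to 6 of these 7 members were called with a library left out. Without the FPKM minimum, 0 genes were called in ABC1 (3883 at an unadjusted p under 0.05) and 177 higher and 193 lower in HCC4006. The fit on all 8 libraries gave 738 and 756 in ABC1 and 706 and 847 in HCC4006, and the fit without the trend 27 and 6 in ABC1. The cause of these shifts was not tested. With 2 libraries a group, the median standard error (log2) over all genes was 0.17 for ABC1 and 0.12 for HCC4006.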

Other observations

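Pseudogenes and antisense genes named after the glutathione S-transferases were also read. Of 17 such identifiers, 0 reached 1 FPKM in any library and 10 were listed at 0 in all 8 libraries.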
